A study of Mus musculus with 6 samples.

Results

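The genes described here are the nuclear-encoded subunits of the mitochondrial respiratory chain and of the ATP synthase, followed by RNA sequencing in monocytes sorted from mouse melanoma tumours. Members were taken by gene symbol from the whole expression table: the numbered Ndufa, Ndufb, Ndufc, Ndufs and Ndufv genes of complex I, Sdha to Sdhd of complex II, the Uqcr genes of complex III, the Cox4 to Cox8 genes of complex IV and the Atp5 genes of complex V. The symbols picked 91 of the 18341 listed genes, with 41 in complex I, 4 in complex II, 10 in complex III, 16 in complex IV and 20 in complex V. The rule for picking them reads the symbols alone. The genes called Ndufab1 and Cyc1, which also encode subunits, fall outside the symbols and are treated separately. Of the 91, 81 are annotated as protein coding and 9 as processed pseudogenes in GENCODE mouse release M21, and the remaining one, Ndufb1-ps, as a non-coding transcript.

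The respiratory chain passes electrons from NADH (through complex I) and succinate (through complex II) to ubiquinone, from there through complex III to cytochrome c, and through complex IV to oxygen. Complexes I, III and IV pump protons across the inner mitochondrial membrane, and complex V, the ATP synthase, uses the gradient to make ATP. Monocytes and macrophages shift between this route and glycolysis with their activation state, and most subunits of the chain are made from nuclear genes and imported.

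C57BL/6 mice had received cells of the mouse melanoma line B16.F10 under the skin, in which B cell activating factor (BAFF, the cytokine encoded by Tnfsf13b) was either overexpressed or not, and monocytes were sorted from the tumours 13 days later. There were 3 libraries from BAFF tumours and 3 from control tumours. The labels give no age, sex, sort gate, vector or number of clones of the tumour cells, and they do not say whether each library came from a separate mouse, so the p-values measure the spread between these libraries, which may be technical. One label gives the source as the B16.F10 line, but the design text describes sorted monocytes, and the latter was followed. Because BAFF was overexpressed in the tumour cells, the Tnfsf13b level in the sorted cells does not check the labels; it was 1.28 ± 0.529 scaled CPM in BAFF and 1.61 ± 0.826 in control libraries (SD, n = 3 each).

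The authors deposited read counts divided by a library total (CPM). The listed genes held 39.8% to 66.1% of the total each library had been divided by, and 1 gene, CT010467.1, varied from 299 to 43052 deposited CPM. Values were therefore divided by median-of-ratios size factors of 0.670 to 1.27 before comparison, and are called scaled CPM. The estimated depth in listed genes ran from 1.88 to 18.2 M reads, and 3 reads corresponded to 0.109 to 0.635 deposited CPM, so the shallowest library, control 3, sets the precision at low levels. On a chi-square per degree of freedom over genes, control 1 gave 63.45 against control 2 and 118.83 against control 3. The other pairs within a group gave 7.31 to 16.65. The measure was taken without size factors and with CT010467.1 included. That gene was at 299 deposited CPM in control 1, 27016 in control 2 and 43052 in control 3. The measure therefore does not show that control 1 differed over most genes. Without control 1, 2 of 82 members rose (Atp5l and Uqcrb), none fell, and the median fold change of members was -0.02. In that fit 13.8% of all 12591 tested genes were called, 736 higher and 996 lower. Fold changes are log2 of BAFF over control on scaled CPM plus 1, which understates changes of low genes, and were tested with limma over all 12824 genes with a mean of at least 1 CPM, with Benjamini-Hochberg adjustment and a threshold of 0.05. All 12 monocyte and macrophage markers passed the filter, with a summed level of 10203 to 11151 scaled CPM in BAFF and 7233 to 9098 in control libraries; 5 of them rose, 1 to 3 did when 1 library was left out, none did on the deposited values, and with quantile normalization none rose and 1 fell. The 12 melanoma markers summed to 82.4 to 169.9 scaled CPM in BAFF and 509 to 656 in control libraries, and 10 of the 11 that could be tested fell. In bulk RNA, fewer cells of a type and less RNA per cell cannot be told apart.

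Transcript levels of the respiratory chain were, on the scaled values, close to equal in monocytes of BAFF and control tumours. Of the 82 members with a mean of at least 1 CPM, 1 rose (Atp5l, a subunit of the ATP synthase), none fell, and 81 did not pass the test (limma, adjusted p under 0.05). At the same threshold 17.1% of all tested genes were called, 7.18% higher and 9.91% lower. At an unadjusted p under 0.05 there were 4 members. The median fold change of the 82 members was 0.01 on the log2 scale, the same as the 0.01 of all tested genes, with 42 members above 0 and 40 below. The size factors themselves place the median of all tested genes near 0, so these values are relative to that centre. Members ranged from -0.38 to 0.41, while all tested genes ranged from -4.07 to 1.65.

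On the scaled values, with the size factors taken as known, the measurements bounded the differences. On the deposited values the fitted changes of members ranged from -0.20 to 0.65, so the bounds below hold for the scaled values only. The 95% interval of the fold change lay within 1 on either side of 0 for all 82 members, against 86.1% of all tested genes, and within 0.5 on either side for 66 members, or 80.5%, against 39.8% of all tested genes. No member had a fitted change over 0.5 in size, a size that 17.4% of all tested genes exceeded. Levels did not overlap between the groups for 8 members (6 higher and 2 lower with BAFF), or 9.76%, against 35.2% of all tested genes. Members also varied less between libraries of a group, with a median SD of 0.13 on the log2 scale against 0.18 for all tested genes. Some of these traits were shared by the 81 tested mitochondrial ribosomal proteins, a set compared below. Of these, 9.88% did not overlap between groups, 0 had a fitted change over 0.5, and 100% of intervals lay within 1. Within 0.5 lay 56.8% of their intervals. For 190 rows of cytosolic ribosomal proteins the shares were 25.3%, 4.74%, 93.2% and 58.9%. All these shares describe the lists, and differences between lists were not tested. A mean of 5 deposited CPM was reached by 76 of the 82 tested members and by 9096 of the 12824 tested genes. Spread, intervals and overlap were not compared at matched levels.

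**Figure D1:**
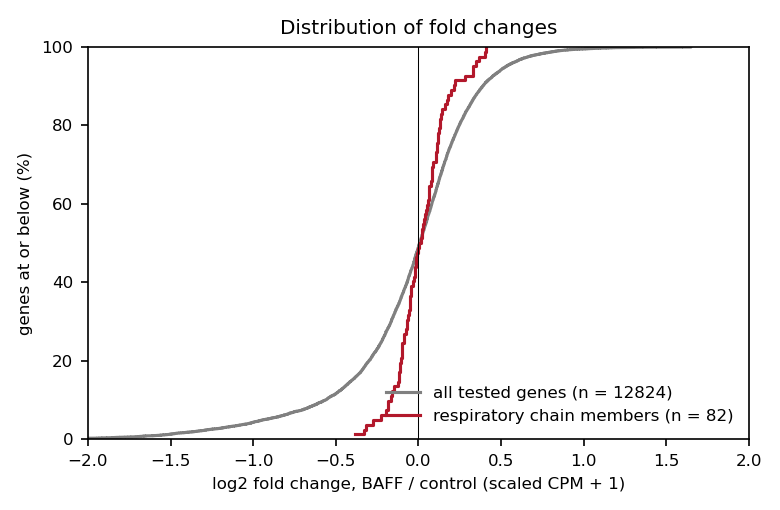
Cumulative share of genes (vertical axis, %) at or below each log2 fold change of BAFF over control on scaled CPM plus 1 (horizontal axis, drawn from -2 to 2), for the 82 tested members in red and all 12824 tested genes in grey. The members end at -0.38 and 0.41, inside the wider curve of all genes, and both curves cross 0 near their medians of 0.01.

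The 9 members below the filter were Ndufa11b, Ndufa4l2, Uqcrh-ps1, Uqcrh-ps2, Cox6a2, Cox6b2, Atp5g2, Atp5l-ps1 and Atp5s. Their libraries reached at most 1.56 scaled CPM, in Atp5s of control 1, and no test was made of them. With the filter raised to a mean of 5 CPM, 76 members were tested and 1 was called, against 15% of all genes tested.

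Compared per kilobase of transcript, the members spanned a wide range of levels. Among the 76 tested coding members with a transcript length, the highest over all libraries was Atp5b, the catalytic beta subunit of the ATP synthase, at 199 scaled CPM per kb, followed by Cox4i1 at 147 and Cox6b1 at 139. Median levels by complex were 19.9 scaled CPM per kb in BAFF and 20.6 in control libraries for complex I, 27.4 and 30.3 for complex II, 34.8 and 34.0 for complex III, 71.5 and 58.8 for complex IV, and 51.1 and 49.7 for complex V. The complex IV medians fell on different genes and do not show a rise. They were Cox6a1 with BAFF (71.5, and 72.9 in controls) and Cox5a in controls (58.8, and 59.4 with BAFF). The median fold change of complex IV was 0.00. The lowest tested were Cox4i2 at 1.68, Cox7a1 at 2.90 and Ndufb4 at 3.29 scaled CPM per kb.

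Summed over all members, BAFF libraries held 2981 ± 208 scaled CPM and control libraries 2921 ± 90.6 (SD, n = 3 each). The groups overlapped in the sums of complexes I, III, IV and V. The complex I sum was 765 ± 55.2 scaled CPM with BAFF and 752 ± 27.1 in controls, and that of complex V 1162 ± 85.1 and 1140.5 ± 46.1. The sum of complex III was 276 ± 24.3 and 260.1 ± 13.0, and that of complex IV 577 ± 37.3 and 549.8 ± 9.91. BAFF library 2 had the highest sum of complexes I, III, IV and V. Only complex II gave sums without overlap, at 194, 209.6 and 197 scaled CPM in BAFF libraries 1 to 3 and 220.01, 216 and 219.55 in control libraries 1 to 3.

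**Figure D2:**
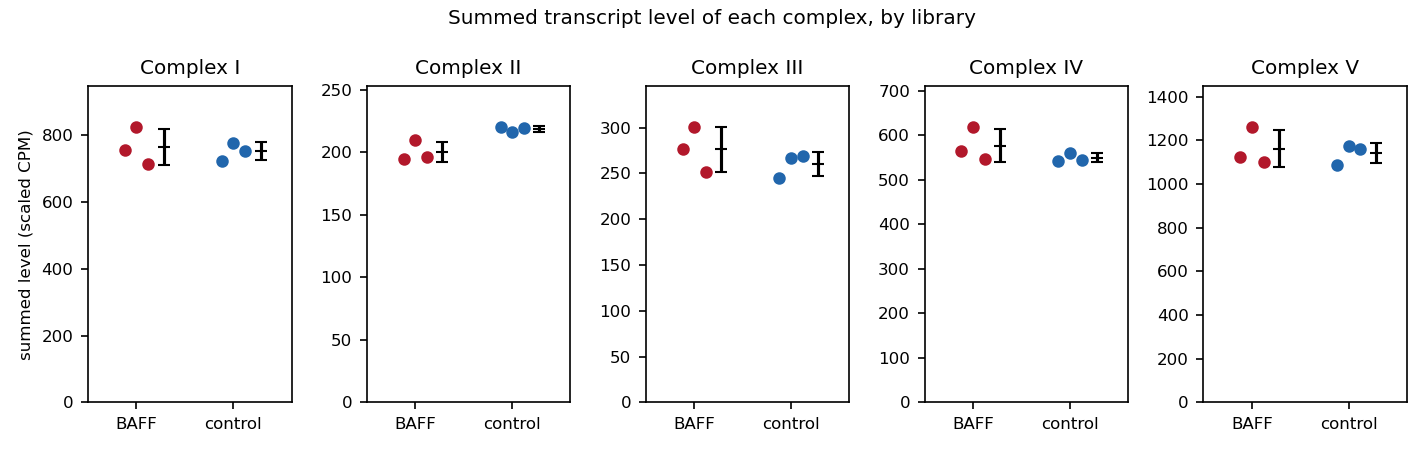
Summed scaled CPM of the members of each complex (vertical axis from 0), with 1 point per library and the mean with SD beside it, for BAFF (red) and control (blue) libraries. Complex I lies at 715 to 824 with BAFF and 724 to 778 in controls, and only in complex II do all control libraries (216 to 220.01) lie above all BAFF libraries (194 to 209.6).

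Complex I, the NADH dehydrogenase, had 39 tested members, none of which passed the test, with a median fold change of -0.01 and 19 above 0. Its interval lay within 0.5 on either side for 33 of them. Several core subunits lay close to 0. Ndufs1, the large iron-sulphur subunit of the NADH-oxidising arm, was at 29.5, 30.0 and 28.1 scaled CPM in BAFF libraries 1 to 3 and at 31.8, 28.9 and 30.0 in control libraries 1 to 3, a fold change of -0.05 ± 0.10 (SE) with a 95% interval of -0.27 to 0.17. The fold changes of Ndufv1 and Ndufv2, of the flavoprotein part of that arm, were 0.09 ± 0.11 and -0.05 ± 0.13.

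The complex I member with the smallest p was Ndufa3, an accessory subunit of the membrane arm. It was at 25.2, 22.8 and 19.2 scaled CPM in BAFF libraries 1 to 3 and at 19.5, 17.1 and 14.8 in control libraries 1 to 3. Its fold change was 0.37 ± 0.14 (limma, adjusted p = 0.0937), and BAFF library 3 lay just below control library 1. Ndufs7, a core subunit that carries the last iron-sulphur cluster before ubiquinone, had the lowest fold change of all members. Its levels were 5.04, 9.15 and 8.69 scaled CPM with BAFF and 10.3, 9.47 and 10.1 in controls. The groups did not overlap, BAFF library 1 was the lowest by far, and the fold change of -0.38 ± 0.19 did not pass (adjusted p = 0.206).

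Ndufa4, which was first assigned to complex I and is found in complex IV, was at 36.1 ± 3.47 scaled CPM with BAFF and 30.7 ± 1.83 in controls (0.22 ± 0.11, adjusted p = 0.199). Its hypoxia-inducible paralogue Ndufa4l2 was at 0.502 scaled CPM per kb against 72.6 for Ndufa4, and its 6 libraries lay between 0 and 0.780 scaled CPM. The accessory subunits Ndufc2 (0.18 ± 0.12, adjusted p = 0.363) and Ndufa1 (0.20 ± 0.14, adjusted p = 0.374) did not pass. Ndufb4 and its processed pseudogene Ndufb4c share sequence, and 73.8% to 79.8% of their joint CPM was listed under the pseudogene. The pseudogene row itself did not overlap between groups (0.21 ± 0.14, adjusted p = 0.326), and the sum of both had a fold change of 0.18 (adjusted p = 0.361), so how the reads of this pair were assigned is uncertain.

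Complex II, the succinate dehydrogenase, also works in the citric acid cycle. All 4 of its subunits had fitted changes below 0 on the scaled values, with a median of -0.11, and above 0 on the deposited values, with changes of 0.08 to 0.15; none passed on either scale. Sdha, the flavoprotein that oxidises succinate, was at 63.4, 68.2 and 77.4 scaled CPM in BAFF libraries 1 to 3 and at 81.5, 76.1 and 76.8 in control libraries 1 to 3 (-0.17 ± 0.10, adjusted p = 0.300). BAFF library 3 lay among the controls. Sdhb, the iron-sulphur subunit, was at 34.9, 36.9 and 33.6 with BAFF and 37.65, 39.8 and 37.59 in controls (-0.12 ± 0.10, adjusted p = 0.439), without overlap. The membrane anchors Sdhc (-0.11 ± 0.10) and Sdhd (-0.10 ± 0.11) overlapped between groups, and all 4 intervals lay within 0.5 on either side of 0.

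Complex III, the cytochrome c reductase, had 8 tested members, none of which passed, with a median of 0.06. Uqcrb, a small subunit bordering the ubiquinone pocket, had the highest fold change of all members, 0.41 ± 0.18 (adjusted p = 0.147). It was at 23.5, 27.9 and 20.8 scaled CPM in BAFF libraries 1 to 3 and at 23.4, 17.8 and 13.3 in control libraries 1 to 3. Control library 1 lay among the BAFF libraries, and without it the fold change was 0.60 with an adjusted p of 0.0345, past the threshold. The core subunits were flat, with 0.03 ± 0.10 for Uqcrc1 and 0.08 ± 0.10 for Uqcrc2, and Uqcrc2 was at 41.2, 41.3 and 41.1 scaled CPM in the controls and at 43.6, 48.0 and 39.9 with BAFF. Uqcrfs1, the Rieske iron-sulphur protein, was at 47.1 ± 4.72 and 43.5 ± 5.46 scaled CPM (0.12 ± 0.12). Uqcrh, the hinge protein that binds cytochrome c1, had a change of 0.13 ± 0.13, and Uqcr11, a small accessory subunit, one of -0.20 ± 0.13 (adjusted p = 0.338).

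Complex IV, the cytochrome c oxidase, had 14 tested nuclear members, of which none passed and 4 did not overlap between groups, all 4 higher with BAFF, a share of 28.6% beside the 35.2% of all tested genes. Cox7a2, the widely expressed form of a small membrane subunit, was at 47.4, 54.3 and 42.3 scaled CPM in BAFF libraries 1 to 3 and at 40.3, 37.0 and 36.3 in control libraries 1 to 3. All BAFF libraries were above all control libraries, and the fold change of 0.33 ± 0.11 missed the threshold (adjusted p = 0.0674). It passed when BAFF library 3 was left out, with 0.42 and an adjusted p of 0.0339, and with weights given to libraries by their quality, with 0.35 and an adjusted p of 0.0474. Cox5b, the zinc-binding subunit on the matrix side, was at 19.3, 21.3 and 20.3 with BAFF and 19.2, 17.5 and 11.98 in controls (0.33 ± 0.16, adjusted p = 0.181), with control library 3 the lowest. Cox6b1, on the intermembrane side, was at 71.95, 73.1 and 69.2 with BAFF and 64.8, 63.5 and 63.2 in controls (0.16 ± 0.09, adjusted p = 0.259). Cox6c had a change of 0.11 ± 0.10 (adjusted p = 0.481).

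Several complex IV subunits come as pairs of isoforms, one of wide and one of restricted expression. Per kilobase, the wide form was the more abundant one in the pairs given here. Cox4i1, the regulatory subunit IV, was at 115, 123 and 105 scaled CPM in BAFF libraries 1 to 3 and at 102.5, 112 and 108 in control libraries 1 to 3 (0.08 ± 0.10, adjusted p = 0.608). Cox4i2, the lung form linked to low oxygen, was at 0.963 ± 0.279 with BAFF and 1.497 ± 0.733 in controls (-0.32 ± 0.24, adjusted p = 0.421). Cox7a1, the heart and muscle form, was at 1.05 ± 0.298 and 1.502 ± 0.590 (-0.27 ± 0.23, adjusted p = 0.465). Per kilobase Cox6a1 was at 72.2 and its muscle form Cox6a2 at 0.451 scaled CPM, and the testis form Cox6b2 was at 0.0866 to 0.316 scaled CPM in the 6 libraries. Cox8b is not analysed here. Cox7a2l, which links complexes III and IV, changed by -0.08 ± 0.11, Cox7b by 0.11 ± 0.10, Cox8a by -0.11 ± 0.12 and Cox6a1 by -0.03 ± 0.10, none past the test. Cox6c2, a processed pseudogene that took 8.21% to 16.2% of the CPM it shares with Cox6c, had a change of -0.33 ± 0.23 (adjusted p = 0.359).

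Complex V, the ATP synthase, had 17 tested members with a median fold change of 0.02, and 1 rose. That member was Atp5l, subunit g of the membrane-bound stator, which takes part in dimer formation. It was at 25.8, 26.9 and 26.9 scaled CPM in BAFF libraries 1 to 3 and at 21.1, 18.4 and 19.9 in control libraries 1 to 3, so that every BAFF library lay above every control library. The fold change was 0.40 ± 0.11 with a 95% interval of 0.17 to 0.64 (limma, adjusted p = 0.0243). The call was lost when BAFF library 1 (adjusted p = 0.0570), BAFF library 2 (0.0798), BAFF library 3 (0.0554) or control library 2 (0.0875) was left out, with fold changes of 0.35 to 0.44 over the 6 fits that left out a library. On the deposited values it was 0.65 with an adjusted p of 0.286. Adding its pseudogene Atp5l-ps1, at most 2.03% of their joint CPM, gave 0.39 with an adjusted p of 0.0272.

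The rest of the enzyme did not pass. Atp5b was at 369.9, 414 and 371 scaled CPM in BAFF libraries 1 to 3 and at 359, 395 and 382 in control libraries 1 to 3 (0.02 ± 0.10, 95% interval -0.20 to 0.24). Atp5a1, the alpha subunit of the catalytic head, was at 255, 291 and 246 with BAFF and 248, 282 and 289.99 in controls (-0.05 ± 0.11). Atp5h (subunit d, 0.28 ± 0.13, adjusted p = 0.176) and Atp5f1 (subunit b, 0.15 ± 0.11, adjusted p = 0.399) belong to the peripheral stalk. Atp5mpl, a small membrane subunit, changed by 0.13 ± 0.13. The 3 genes of the proton-carrying c subunit encode the same mature protein. Per kilobase Atp5g3 was at 69.5, Atp5g1 at 5.82 and Atp5g2 at 1.40 scaled CPM. These levels depend on the median transcript lengths used, 718, 2675 and 586 bases, and which transcripts were present was not tested. Before division by length, Atp5g3 was at 49.8 scaled CPM with BAFF and 49.99 in controls, and Atp5g1 at 15.4 and 15.8. Atp5g2 was at 1.02 and 0.617. The fold changes were -0.01 ± 0.09 for Atp5g3 and -0.03 ± 0.12 for Atp5g1. The pseudogenes Atp5c1-ps (0.35 ± 0.27) and Atp5k-ps2 (-0.18 ± 0.24) lay at 1 to 2 scaled CPM on average and had the widest intervals of the complex.

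**Figure D3:**
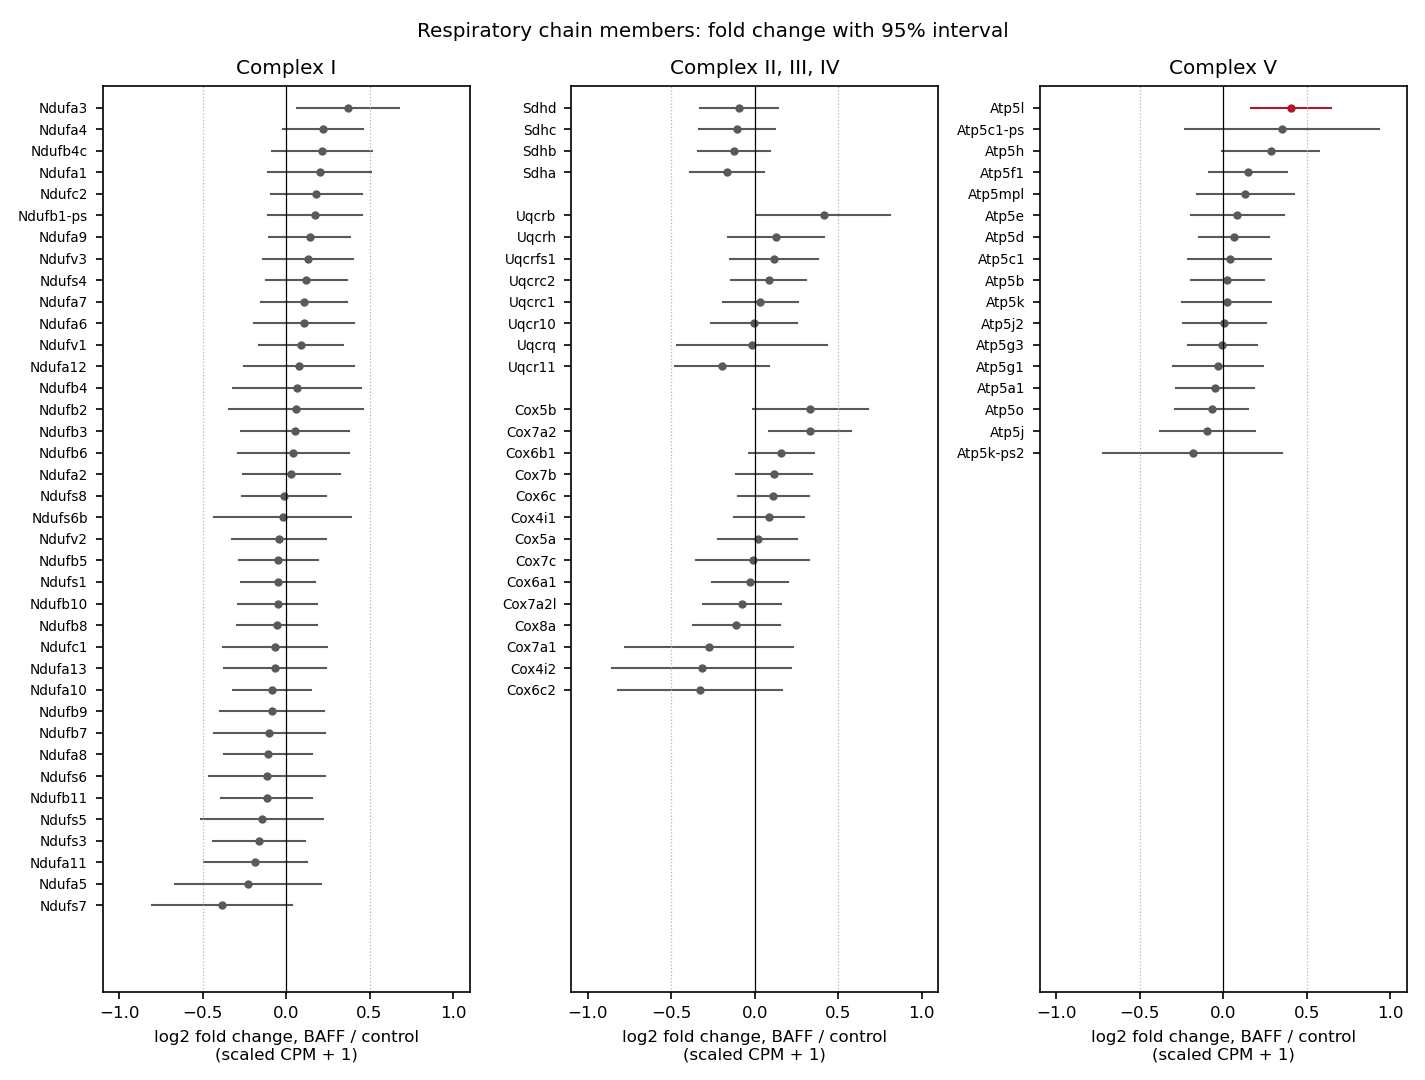
Log2 fold change of BAFF over control on scaled CPM plus 1 (horizontal axis) for 81 of the 82 tested members, with the 95% limma interval as a line, in panels for complexes I, II to IV, and V (in the middle panel complexes are set apart by gaps). The dotted lines mark 0.5 on either side of 0, and the red point is Atp5l at 0.40, the only called member.

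Regulatory sequence was looked at in the RefSeq bases before each start site (GRCm38.p6; 67 members had an entry), because Nrf1, GABP, YY1 and ERR-alpha are known regulators of these genes. The 250 bases upstream of Atp5l, the called member, are given 5′ to 3′ with the match to the NRF1 core GCGCATGC, here as its reverse complement GCATGCGC, in capitals.
Atp5l (chr9:44920743-44920992, minus strand): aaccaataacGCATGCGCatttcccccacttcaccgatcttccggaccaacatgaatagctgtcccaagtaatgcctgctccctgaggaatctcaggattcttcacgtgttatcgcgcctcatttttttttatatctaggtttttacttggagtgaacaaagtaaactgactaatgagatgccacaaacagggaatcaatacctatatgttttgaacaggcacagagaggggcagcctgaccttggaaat
The match begins 240 bases before the start site. For comparison, the 7 other members with such a match are shown with the bases around it, matches in capitals, and where capitals run to 10 bases, both strands match and overlap.
Atp5g2 (chr15:102671071-102671100, minus strand): tggctccggccGCGCATGCGCagagccttc
Atp5k (chr5:108434431-108434460, minus strand): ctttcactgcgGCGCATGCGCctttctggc
Cox6a1 (chr5:115349102-115349131, minus strand): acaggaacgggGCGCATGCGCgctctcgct
Ndufa11 (chr17:56717691-56717720, plus strand): acctgcactgcGCGCATGCGCgcacgcctt
Ndufa6 (chr15:82354356-82354385, minus strand): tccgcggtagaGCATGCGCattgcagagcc
Ndufa8 (chr2:36049339-36049357, minus strand): tcgctggagacGCATGCGC
Sdhb (chr4:140961206-140961235, plus strand): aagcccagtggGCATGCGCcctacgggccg
In all, 8 of the 67 members, or 11.94%, held GCGCATGC on either strand within 250 bases, against 4.74% of the 11170 listed genes with an entry. The ETS core CCGGAAGT bound by GABP was in 3 members, or 4.48% against 6.45%, the YY1 core AAGATGGC in 1, or 1.49% against 2.42%, and the ERR core TCAAGGTCA in 1, or 1.49% against 0.28%. The 7 tested members with the NRF1 letters had a median fold change of -0.03 and the 57 without it one of 0.02. Atp5l thus shared the letters with members such as Sdhb and Cox6a1 that did not pass. These matches describe letters in a window and say nothing of binding.

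Known regulators of these genes were measured too. Of 19 tested regulators of mitochondrial biogenesis, 2 fell (Ppargc1a and Tfam), none rose and 17 did not pass, with a median of 0.09. The share that fell, 10.5%, was near the 9.91% of all tested genes. Ppargc1a, the coactivator PGC-1alpha that drives the mitochondrial gene programme, was at 4.46, 4.10 and 2.03 scaled CPM in BAFF libraries 1 to 3 and at 9.33, 7.61 and 9.16 in control libraries 1 to 3. The groups did not overlap, and the fold change was -1.14 ± 0.22 (adjusted p = 0.00418), with an adjusted p of at most 0.0142 when any 1 library was left out. Its deposited values gave -0.93 with an adjusted p of 0.0512. Tfam, which packages and transcribes mitochondrial DNA, was at 6.11, 8.32 and 6.10 with BAFF and 9.35, 10.4 and 11.1 in controls (-0.53 ± 0.16, adjusted p = 0.0375). That call was lost without BAFF library 1 (adjusted p = 0.132), BAFF library 3 (0.112), control library 2 (0.0855) or control library 3 (0.0914). Nrf1 (0.14 ± 0.11), Gabpa (0.16 ± 0.10), Yy1 (0.22 ± 0.09, adjusted p = 0.135) and Esrra (-0.06 ± 0.14) did not pass.

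Ubiquinone and cytochrome c carry electrons between the complexes. The list here held cytochrome c and proteins that pass electrons to ubiquinone, but most of its genes serve ubiquinone synthesis or binding. Of the 19 genes tested in this list, 2 rose and 2 fell, or 10.5% in each direction, near the 7.18% higher and 9.91% lower of all tested genes. Coq10b, which binds ubiquinone for use by the chain, was at 65.0, 75.6 and 72.1 scaled CPM in BAFF libraries 1 to 3 and at 50.2, 41.6 and 41.4 in control libraries 1 to 3 (0.67 ± 0.11, adjusted p = 0.00161), with an adjusted p of at most 0.0120 when any 1 library was left out. Coq8a, a kinase-like protein of ubiquinone synthesis, fell from 3.46 ± 0.851 in controls to 1.31 ± 0.474 (-0.95 ± 0.22, adjusted p = 0.0113), a call lost without BAFF library 2 (0.0545). Coq7, the hydroxylase of the same pathway, fell from 5.03 ± 0.788 to 2.69 ± 0.365 (-0.70 ± 0.18, adjusted p = 0.0190), a call lost without BAFF library 2 (0.0762), BAFF library 3 (0.0638) or control library 2 (0.0620). Gpd2, which passes electrons from cytosolic glycerol phosphate to ubiquinone, rose from 29.3 ± 4.88 to 41.4 ± 4.20 (0.49 ± 0.13, adjusted p = 0.0262), a call lost without BAFF library 1 (0.103), BAFF library 3 (0.0508) or control library 3 (0.0825). Cycs, cytochrome c itself, did not pass, at 35.6, 46.3 and 35.0 with BAFF and 31.6, 31.8 and 25.01 in controls (0.39 ± 0.14, adjusted p = 0.0761).

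Of the assembly factors tested, 6.67% of those for complex I fell and 4.76% of those for complex IV rose. Among all tested genes 9.91% fell and 7.18% rose. The lists in this paragraph are short and were not tested against those shares. For complex I, 1 of 15 fell: Ecsit was at 4.72 ± 0.475 scaled CPM with BAFF and 8.13 ± 1.75 in controls (-0.66 ± 0.17, adjusted p = 0.0222), a call lost without BAFF library 1 (0.0739), BAFF library 3 (0.0666) or control library 2 (0.0822). For complex IV, 1 of 21 rose: Higd1a, a hypoxia-inducible protein of the inner membrane, was at 27.1 ± 3.87 and 18.7 ± 3.87 (0.52 ± 0.16, adjusted p = 0.0381), with overlapping groups. That call was lost without BAFF library 1 (0.119), BAFF library 2 (0.150), control library 1 (0.128) or control library 3 (0.0914). None of 9 factors for complexes II and III and none of 3 for complex V passed, with medians of -0.21 and -0.25. Of a further list of 5 tested genes outside the symbols none passed. It held the subunits Ndufab1, the acyl carrier protein (-0.33 ± 0.18, adjusted p = 0.252), Cyc1, cytochrome c1 (-0.13 ± 0.12), and Usmg5. The list also held Nnt (-0.29 ± 0.12, adjusted p = 0.138, without overlap between groups) and Atpif1 (-0.22 ± 0.12, adjusted p = 0.241), which are not subunits of complexes I to V. None of 20 genes of mitochondrial import and cristae passed, with a median of -0.03. The 15 genes of the mitochondrial genome, which encode the remaining subunits and the mitochondrial ribosomal RNAs, are not analysed here.

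Of 18 tested citric acid cycle genes 2 fell and none rose; the 11.1% that fell was near the 9.91% of all tested genes. Idh2, the mitochondrial NADP-dependent isocitrate dehydrogenase, was at 24.3, 26.7 and 21.5 scaled CPM in BAFF libraries 1 to 3 and at 39.96, 35.7 and 36.0 in control libraries 1 to 3 (-0.60 ± 0.11, adjusted p = 0.00365), with an adjusted p of at most 0.0153 when any 1 library was left out. Suclg2, a succinyl-CoA ligase subunit, was at 8.02 ± 1.23 and 12.1 ± 0.0597 (-0.55 ± 0.15, adjusted p = 0.0221), a call lost without BAFF library 1 (0.0949), control library 1 (0.0520) or control library 2 (0.0520). Pdhb, a pyruvate dehydrogenase subunit, did not pass (0.35 ± 0.13, adjusted p = 0.0811).

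Of 20 genes of glycolysis and the hypoxia response 7 rose, or 35% beside 7.18% of all tested genes, none fell and 13 did not pass, with a median of 0.23. Leaving out 1 library at a time gave 3 to 8 genes higher, and the deposited values and quantile normalization gave 2 each. Hif1a, the oxygen-regulated transcription factor, was at 358, 329 and 307 scaled CPM in BAFF libraries 1 to 3 and at 179.9, 199 and 219 in control libraries 1 to 3 (0.73 ± 0.11, adjusted p = 0.000793). Vegfa, its angiogenic target, was at 379 ± 87.6 and 225 ± 26.3 (0.74 ± 0.15, adjusted p = 0.00584). Pfkp, a phosphofructokinase of glycolysis, was at 327 ± 5.61 and 232 ± 36.7 (0.51 ± 0.12, adjusted p = 0.0129). All 3 were without overlap between groups, with an adjusted p of at most 0.0456 in each fit of the scaled values that left out a library.

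**Figure D4:**
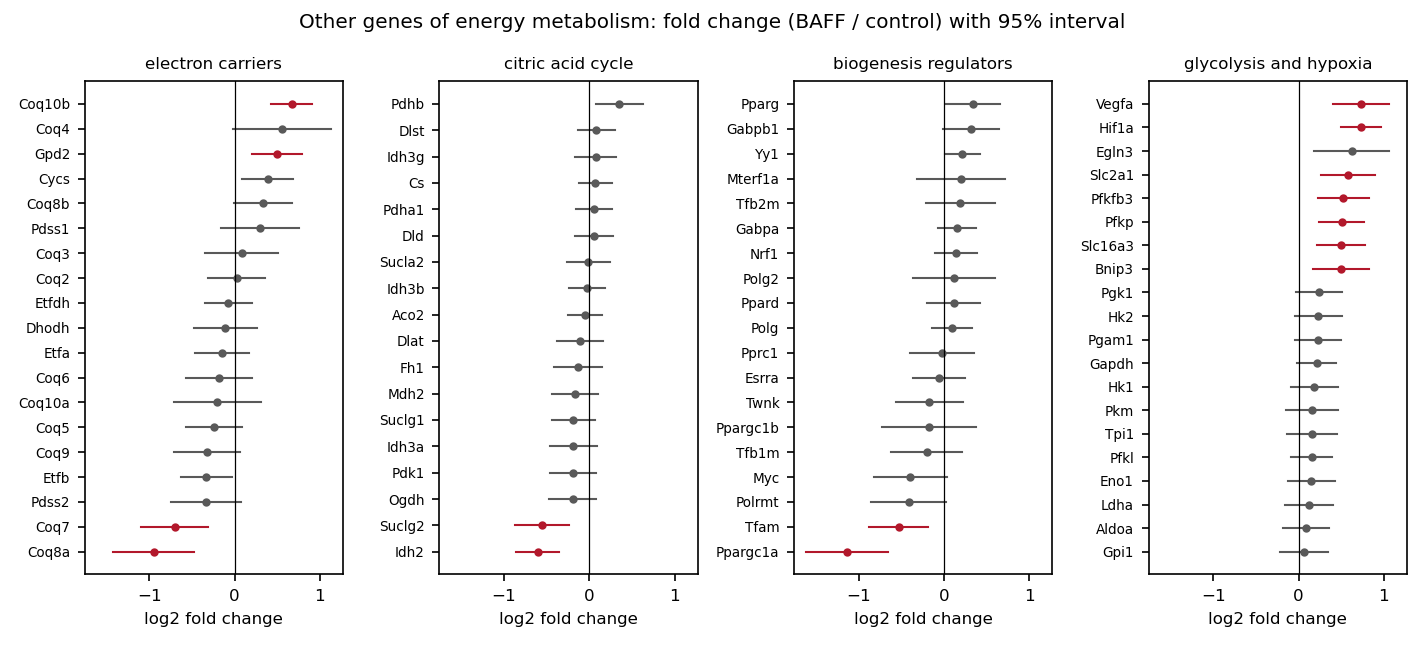
Log2 fold change of BAFF over control on scaled CPM plus 1 (horizontal axis) with 95% limma intervals for the tested genes of 4 lists around the chain, with called genes in red. Called genes lie on both sides of 0 in the electron carriers panel (Coq10b at 0.67, Coq8a at -0.95), most of whose genes serve ubiquinone synthesis or binding. They lie below 0 in the citric acid cycle and among biogenesis regulators (Ppargc1a at -1.14), and above 0 in glycolysis and hypoxia (Vegfa at 0.74).

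Other groups of cells and states moved in the same libraries. The counts below stand beside 7.18% higher and 9.91% lower among all tested genes on the scaled values. Besides the melanoma markers, 19 of 20 cell cycle genes fell, with a summed level of 207 to 213 scaled CPM in BAFF and 468 to 556 in control libraries, and Mki67 went from 124 ± 5.85 to 38.6 ± 4.78 (-1.67 ± 0.11, adjusted p = 1.22e-05). Dct, the most abundant of the melanoma markers, went from 217 ± 29.1 to 43.7 ± 13.5 (-2.32 ± 0.19, adjusted p = 3.36e-05). On the scaled values both lists had the same counts of 10 and 19 genes lower in every fit that left out a library. On the deposited values such fits gave 6 to 10 melanoma markers and 6 to 19 cell cycle genes lower. The summed levels of neutrophil markers were 165 to 224 scaled CPM with BAFF and 98.5 to 153 in controls, with 2 of 7 higher, and 0 to 3 when 1 library was left out. Those of fibroblasts and endothelium were 67.4 to 97.7 and 69.7 to 227, with 2 of 11 higher and 1 lower, and 0 to 2 higher and 0 to 1 lower when 1 library was left out. Summed T and NK cell markers were at 13.5 to 25.3 and 15.2 to 26.7 with none of 9 called, B and plasma cell markers at 31.1 to 42.2 and 39.6 to 70.8 with 2 of 4 lower (1 to 2 when 1 library was left out), and red cell and platelet markers at 63.7 to 122 and 121 to 188 with none of 6 called (0 to 2 lower when 1 library was left out). On the deposited values 4 neutrophil markers were higher, 15 cell cycle genes lower and no fibroblast or endothelial marker called. No marker in the table was at 0 in all libraries. The part of these cells in the levels of the respiratory chain genes, and in those of Ppargc1a, Tfam, Idh2 and the other called genes, was not tested.

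Ribosomal proteins, another large set of abundant housekeeping transcripts, served for comparison. Of 190 tested rows of cytosolic ribosomal proteins and their copies, 11 rose and none fell, with a median of 0.14. Of 81 mitochondrial ribosomal proteins 1 rose and none fell, with a median of -0.03. Among all 12824 tested genes 921, or 7.18%, rose and 1271, or 9.91%, fell. The respiratory chain counts were 1 and 0 of 82, and differences between lists were not tested.

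The scale mattered for the direction of small changes. On the deposited values the median of all tested genes was 0.23 and that of the members 0.25, and 76 of 82 members were above 0 where 42 had been on the scaled values. Members ranged from -0.20 to 0.65 there, none was called (limma, 2 at an unadjusted p under 0.05), and 5.31% of all tested genes were. By library, the deposited members lay at a median of 0.30 above their mean over libraries in BAFF library 2 and of -0.53 in control library 3, with all tested genes at 0.17 and -0.51. After scaling, the same medians of the members lay between -0.08 and 0.12. Outside the members, Hif1a and Vegfa were the only genes of the pathway lists called on the deposited values. Idh2 had a fold change of -0.36 there (adjusted p = 0.588) and Coq10b one of 0.92 (adjusted p = 0.0687). With quantile normalization Ecsit (adjusted p = 0.0945), Coq7 (0.0929), Suclg2 (0.0639), Tfam (0.120), Higd1a (0.0536) and Pfkp (0.125) missed the threshold, as did Bnip3 (0.193), Pfkfb3 (0.128), Slc16a3 (0.161) and Slc2a1 (0.110) of the glycolysis and hypoxia list.

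**Figure D5:**
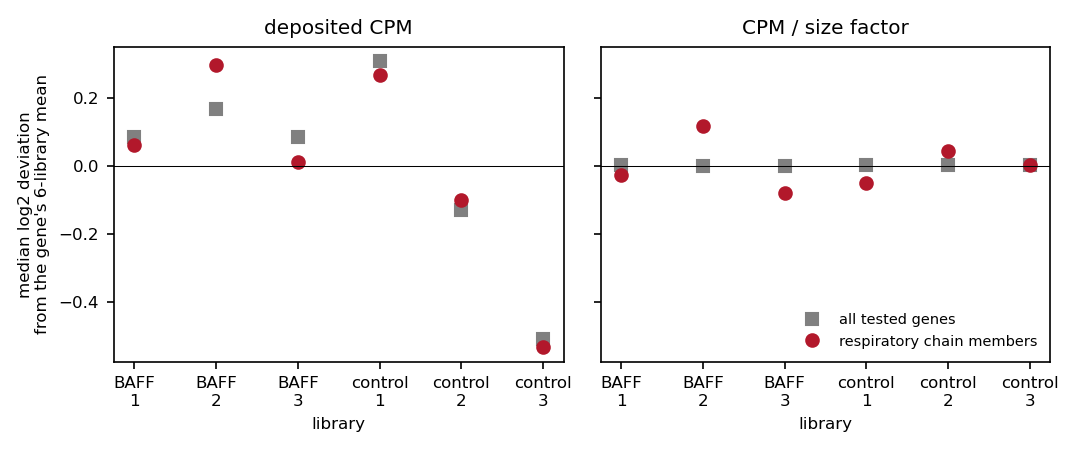
Median log2 deviation from each gene's mean over the 6 libraries (vertical axis) by library, for the 82 members (red circles) and all tested genes (grey squares), on deposited CPM (left) and scaled CPM (right). The members follow all genes on the deposited scale, down to -0.53 in control 3, and on the scaled values BAFF 2 is highest at 0.12 and BAFF 3 lowest at -0.08.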

How the data were processed

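The values are in CPM, as deposited by the authors for 18341 genes; the unit was read from the values. The submitters' processing notes name Partek, STAR 2.4.1d and Bowtie2 2.2.5 without roles. The library kit (TruSeq RNA v2, per the labels' protocols) does not mark strand, so overlapping antisense transcripts cannot be told apart. Of the genome build, the annotation and the counting rule each is "not given in the sources used here". Between 84.74% and 86.44% of low values were within 0.02 of whole reads, so reads were not recovered. A misspelt column name was taken as control tumour 2. No pair of libraries of 1 group agreed within sampling noise (chi-square per degree of freedom 7.31 to 118.83, without size factors and with CT010467.1 included).

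Here, CPM were divided by median-of-ratios size factors and log2(value + 1) was fitted with limma-trend (limma 3.58.1, R 4.3.3) over genes averaging at least 1 CPM, two-sided, Benjamini-Hochberg adjusted. The script was tested on simulated data. Errors of fold changes are SE and 95% intervals use limma's SE. Lengths are medians of GENCODE M21 coding transcripts; 18238 symbols matched. Promoters are RefSeq's. Alternatives were the deposited values, upper-quartile and quantile scaling, a pseudocount of 0.1, no filter or 5 CPM, library weights, an untrended variance, a replicate block and each library left out; deposited values with each library left out were added after the data were seen. Fits that left out a library used the scaled values unless the deposited values are named. Same-numbered libraries had correlations of -0.05, 0.05 and -0.04 in their deviations from the group means.

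Members and lists were chosen with earlier results of these data known. Members were named with values if among the 6 smallest p of their complex or part of an isoform pair, and the 3 smallest p of each other list and the most abundant marker were eligible. Ndufb4, Ndufs1, Ndufv1, Ndufv2, Atp5a1, Atp5b, Gpd2, Cycs, Cyc1, Nrf1, Gabpa, Esrra, Bnip3, Pfkfb3, Slc16a3 and Slc2a1 were named after their values were seen. The values of 1 tested complex I member are not reported here; it is included in the counts.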

Additional observations from a re-analysis of the deposited data

How the results depend on the processing

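The count of 0 members lower held under all 15 alternatives set out at the start and the 6 added ones. The count of members higher was 1 in the comparison reported and also under upper-quartile and quantile scaling, a pseudocount of 0.1, no filter, a filter at 5 CPM, and an untrended variance. It was 2 with library weights, 0 to 2 when 1 library was left out, and 0 on the deposited values, where the median fold change of members was 0.25. Of all tested genes, 17.1% were called in the comparison reported and 13.2% to 16.6% in the other settings with 1 member higher. The share was 18.6% with library weights, 10.5% to 14.2% when 1 library was left out, and 5.31% on the deposited values. On the deposited values without 1 library the count was 0 except without control library 1, where it was 28 of 82. There 4615 of all 12591 tested genes were higher and 534 lower, or 40.9% called in either direction. In the other fits of the deposited values without 1 library, 1.32% to 9.06% of all tested genes were called. The medians of members were 0.28, 0.17 and 0.31 without BAFF libraries 1, 2 and 3, and 0.46, 0.28 and 0.03 without control libraries 1, 2 and 3. The cause was not tested. The replicate numbers do not pair the libraries by their correlations; with a replicate block 1 member was called, with 781 genes higher and 1159 lower against 921 and 1271. Over the 15 alternatives a member lost its call 5 times, all in Atp5l, and gained one 3 times, in Cox7a2 and Uqcrb; members called in neither fit changed sign 129 times. Outside the members, Higd1a, Tfam and Bnip3 each passed in 4 of the 9 settings that kept all libraries, and the neutrophil marker Csf3r in 3. Bnip3 kept its call in 1 of the 6 fits of the scaled values that left out a library. Depth limits the low members: in control library 3 the 3-read floor is 0.635 deposited CPM, so isoforms such as Ndufa4l2, Cox6a2 and Cox6b2 could not be compared. With 3 libraries in each group, an exact permutation test could not go below 0.1.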
